A study of Danio rerio with 8 samples.

Results

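The genes described here are 10 subunits of the sodium pump (Na,K-ATPase), 5 alpha and 5 beta, found by their symbols among the 32520 rows of the count table. They are *atp1a1a.1*, *atp1a1b*, *atp1a2a*, *atp1a3a*, *atp1a3b*, *atp1b1a*, *atp1b1b*, *atp1b2a*, *atp1b3a* and *atp1b4*, and all 10 passed the filter on low counts, as did 19412 rows in all. A further 6 alpha and beta rows in the table, *atp1a1a.2* to *atp1a1a.5*, *atp1b2b* and *atp1b3b*, are given beside them. RNA was taken from dissected heads of AB strain larvae at 7 days post-fertilization (dpf), 4 libraries from wild-type (WT) larvae and 4 from larvae with both copies of *mtmr5* (*sbf1*) deleted by CRISPR/Cas9 (*mtmr5*-KO), with 11 to 17 heads dissected per genotype. All *mtmr5*-KO larvae carry the same full gene deletion, so a single line stands for the genotype, and a head holds eye, skin and muscle beside the brain.

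The sodium pump moves sodium out of the cell and potassium in at the cost of ATP, and so sets the ion gradients on which action potentials, synaptic uptake of transmitters and epithelial ion transport depend. The alpha subunit is the catalytic chain. The beta subunit is a glycosylated chaperone that brings alpha to the membrane. In mammals alpha1 is found in nearly all cells and is the alpha subunit of epithelia, alpha2 is typical of astrocytes and muscle, and alpha3 of neurons, while beta1 is widespread and beta2 was first described as an adhesion molecule of glia. Zebrafish hold several of these genes as duplicate copies, marked a and b. The question asked here is how each copy differed between WT and *mtmr5*-KO heads.

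A WT library held 20514932 to 22761120 counts and an *mtmr5*-KO library 16104181 to 19170140. The targeted gene *sbf1* had 1894 to 2545 counts in WT but 26 to 63 in *mtmr5*-KO. Transcripts of the 13 mitochondrial genes made up 6.43% to 8.82% of a WT library but 18.6% to 26.6% of an *mtmr5*-KO library, most in *mtmr5*-KO replicates 3 and 4. All 13 were called higher, and 9 of 11 tested lens markers were called lower, or 6 without *mtmr5*-KO replicates 3 and 4. Levels are given as CPM, counts scaled to a common library size after TMM scaling. TMM takes the bulk of genes as unchanged, so each fold change is relative to that bulk. If library totals are used instead, the median gene moves on the log2 scale from -0.019 to -0.98. Then 10819 of the 19412 genes tested are called lower and 719 higher, the background for each count by library totals below. Distances from the median gene hardly moved, as *atp1a1b* stood 0.93 above the median gene on the log2 scale with TMM and 0.87 above it with library totals. CPM are per gene and not per length, so that levels are compared between libraries and not between genes. In these bulk libraries, fewer cells of a type and less RNA per cell cannot be told apart.

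Of the 10 members, 2 were higher and 1 was lower in *mtmr5*-KO heads at an adjusted p under 0.05 (quasi-likelihood test of edgeR), against 21.0% of all genes tested (13.5% higher and 7.51% lower). *atp1b1b* rose by 2.23-fold and *atp1a1b* by 1.88-fold, whereas *atp1b4* fell to 0.730 of its WT level, all relative to the bulk of genes, and by library totals the log2 fold change of *atp1a1b* turned to -0.10 and neither increase was called. These 3 were also the members whose WT and *mtmr5*-KO libraries did not overlap, as was the case for 24.9% of all genes. The median log2 fold change of the members was -0.076 and that of all genes -0.019, and the members ranged from -0.58 to 1.15. Without *mtmr5*-KO replicates 3 and 4, 2 members were higher and none lower, and 2371 genes were called in all. The other alpha1 member, *atp1a1a.1*, and the other beta1 copy, *atp1b1a*, were not called in this fit. A fit with the replicate number as a block, given at the end, called 7 members, 3 higher and 4 lower. That fit also called more genes in all, 5143 of 19412 against 4075 without the block. It added *atp1b1a* as higher, and *atp1a3a*, *atp1a3b* and *atp1b3a* as lower.

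**Figure D1:**
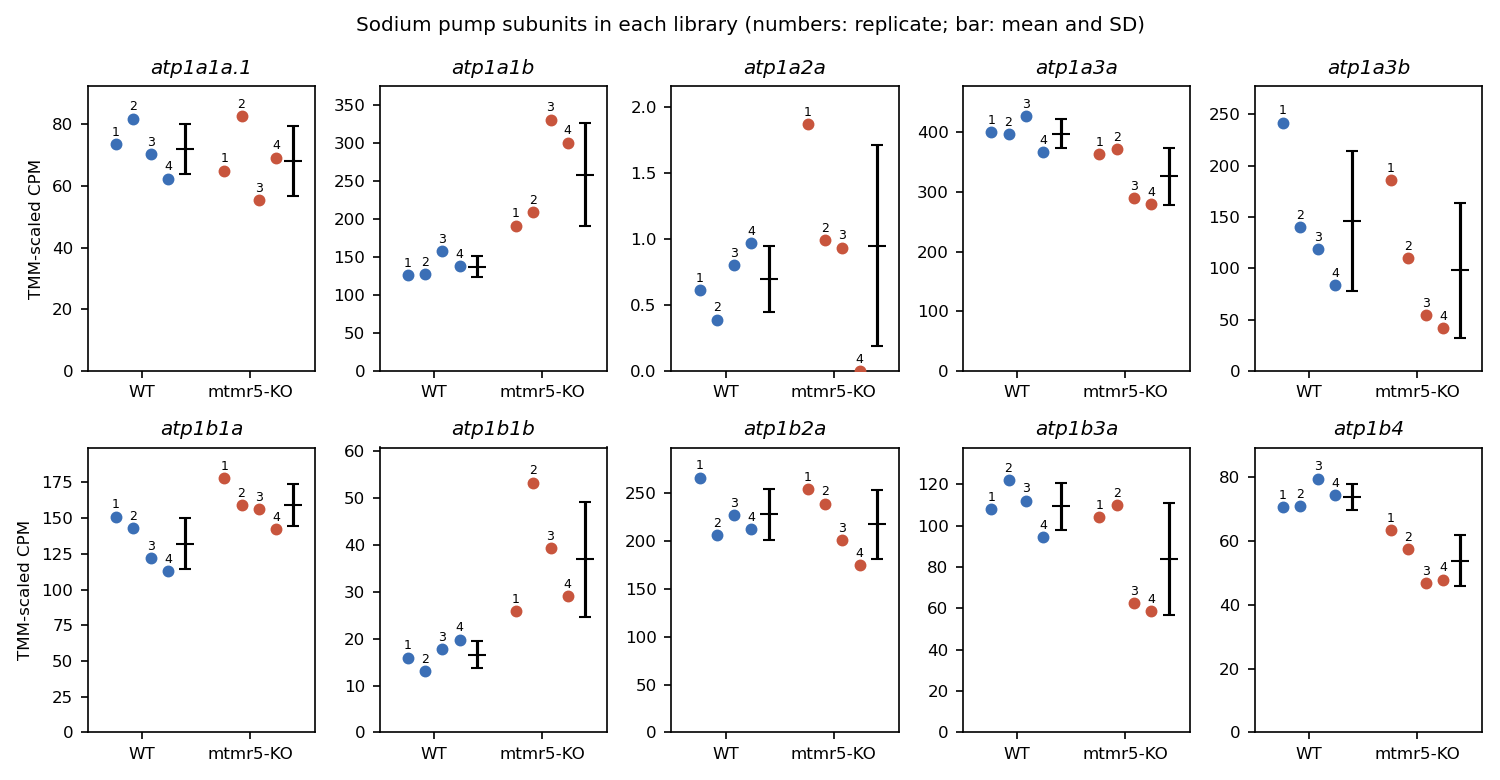
TMM-scaled CPM (y axis, from 0, a separate scale for each gene) of the 10 sodium pump members in the 4 WT (blue) and 4 *mtmr5*-KO (red) libraries, with the replicate number over each point and the mean and SD of each genotype as black bars. The libraries of the genotypes do not overlap for *atp1a1b*, *atp1b1b* and *atp1b4*, and *atp1a3b* is spread from 83.6 to 242 within WT alone.

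The alpha1 genes serve epithelia and housekeeping transport in mammals, and of the alpha1 members *atp1a1b* was called and *atp1a1a.1* was not. *atp1a1b* had 126, 127, 157 and 138 CPM in WT replicates 1 to 4. In *mtmr5*-KO replicates 1 to 4 it had 191, 209, 330 and 300 CPM. The genotypes did not overlap, and *mtmr5*-KO replicates 3 and 4 were highest. The means were 137 ± 14.1 and 258 ± 67.8 CPM (SD, n = 4 each), and the log2 fold change was 0.91 with an SE of 0.18 (edgeR, adjusted p = 0.00225), or -0.10 when scaled by library totals. With *mtmr5*-KO replicates 3 and 4 left out it was 0.51 (adjusted p = 0.0439), and it stayed called in each fit with 1 library left out.

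*atp1a1a.1*, the other alpha1 member, is the gene of the heart and mind mutant and is needed for heart tube extension and inflation of the brain ventricles in zebrafish. It had 73.6, 81.8, 70.3 and 62.3 CPM in WT against 64.9, 82.6, 55.3 and 69.1 CPM in *mtmr5*-KO. The ranges overlap almost fully, and the log2 fold change was -0.083 (SE 0.15, edgeR adjusted p = 0.743). In the GRCz12tu annotation of RefSeq the 5 *atp1a1a* genes lie side by side with no other protein-coding gene between them, in the order *atp1a1a.4*, *atp1a1a.1*, *atp1a1a.2*, *atp1a1a.3* and *atp1a1a.5*. Such tandem copies are close in sequence, and since only uniquely mapping reads were counted, the split of reads among them is uncertain. Of the copies outside the members, *atp1a1a.4* had 3.91 to 9.44 CPM in WT against 5.43 to 21.7 CPM in *mtmr5*-KO, with 21.7 and 19.7 CPM in *mtmr5*-KO replicates 3 and 4 and 6.27 and 5.43 CPM in replicates 1 and 2. It was not called (log2 fold change 0.93, SE 0.49, edgeR adjusted p = 0.216), and without replicates 3 and 4 its log2 fold change was -0.27. *atp1a1a.2*, *atp1a1a.3* and *atp1a1a.5* stayed under 4 CPM in every library, and none was called.

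The alpha2 member *atp1a2a* was near the limit of detection. It had 22, 12, 23 and 27 raw counts in WT against 25, 15, 10 and 0 in *mtmr5*-KO. The 0 of *mtmr5*-KO replicate 4 allows a level of up to 0.289 CPM (3 counts, counting error only), below all other libraries. The log2 fold change was 0.47 with an SE of 0.73 (edgeR adjusted p = 0.695), and 1.00 without *mtmr5*-KO replicates 3 and 4. At a mean of 0.693 CPM in WT, a change of *atp1a2a* was not detectable at this depth. Whether this gene is the alpha subunit of glia or muscle in these heads was not tested.

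The alpha3 genes are the neuronal alpha subunits of mammals. *atp1a3a* had the most reads of any member, with 400, 397, 427 and 367 CPM in WT against 363, 372, 290 and 280 CPM in *mtmr5*-KO. *mtmr5*-KO replicates 1, 3 and 4 lay below all WT libraries and replicate 2 among them. The means were 398 ± 24.6 and 326 ± 47.9 CPM (SD, n = 4 each), and the log2 fold change of -0.28 (SE 0.15) did not pass the test (edgeR adjusted p = 0.210) and was -0.15 without *mtmr5*-KO replicates 3 and 4. Its copy *atp1a3b* varied widely within each genotype, with 242, 140, 119 and 83.6 CPM in WT against 186, 110, 54.2 and 41.4 CPM in *mtmr5*-KO. In both genotypes replicate 1 was highest and replicate 4 lowest, and each *mtmr5*-KO library lay below the WT library of the same number. Taken without regard to the numbers the ranges overlap widely, and the log2 fold change was -0.58 (SE 0.54, edgeR adjusted p = 0.514), or -0.026 without *mtmr5*-KO replicates 3 and 4. With the replicate number as a block, *atp1a3b* was called at -0.71 (edgeR adjusted p = 0.000638) and *atp1a3a* at -0.29 (adjusted p = 0.0448). The labels do not state that a number marks a shared pair.

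In the same libraries 6 of 17 tested neuronal markers were higher and 3 lower. The largest log2 fold change was that of *elavl3*, an RNA-binding protein of neurons, at 1.23. The 3 lower markers were *syn2b* at -0.60, *slc17a6b* at -0.61 and *stmn2b* at -0.55. Without *mtmr5*-KO replicates 3 and 4, 3 markers were higher and none lower, and by library totals none was higher and 9 were lower. The summed level of the neuronal list was 4450 to 5560 CPM in WT against 7350 to 9050 CPM in *mtmr5*-KO, with no overlap. Its largest part was *elavl3*, with a mean of 1219 CPM in WT against 2855 CPM in *mtmr5*-KO. The alpha3 genes were not called in the main fit and had negative log2 fold changes in the same libraries. The 13 photoreceptor markers, cells that also hold alpha3 in mammals, summed to 6850 to 14700 CPM in WT against 3610 to 13500 CPM in *mtmr5*-KO, and none was called. The part of neurons or photoreceptors in the alpha3 values was not tested.

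Within a library, the share of each gene in the reads of its subunit class does not depend on how libraries are scaled. *atp1a1b* held 15%, 17%, 20.2% and 21.2% of the reads of the 5 alpha genes in WT. In *mtmr5*-KO replicates 1 to 4 it held 23.7%, 27%, 45.2% and 43.4%. The means were 18.4% ± 2.87 and 34.8% ± 11.1 (SD, n = 4 each), and no *mtmr5*-KO library overlapped WT. The alpha3 copies together held 69.1% to 76.2% of alpha reads in WT against 46.6% to 68.1% in *mtmr5*-KO, and the lowest were *mtmr5*-KO replicates 3 and 4, at 47.1% and 46.6%. These ranges did not overlap, but they are not independent of the share of *atp1a1b*. The shares of a class add up to a fixed total, so a larger share of *atp1a1b* leaves a smaller one for alpha3. The levels of *atp1a3a* and *atp1a3b* also had negative log2 fold changes, -0.28 and -0.58, neither called. How much of the lower alpha3 share came from each was not tested. Taken singly, the shares of *atp1a3a* and of *atp1a3b* overlapped between genotypes. *atp1a1a.1* held 7.57% to 11% of alpha reads over all 8 libraries. These are shares of reads and not of transcripts, as gene lengths were not used here, and they are given without a test since they are sums over the chosen genes.

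**Figure D2:**
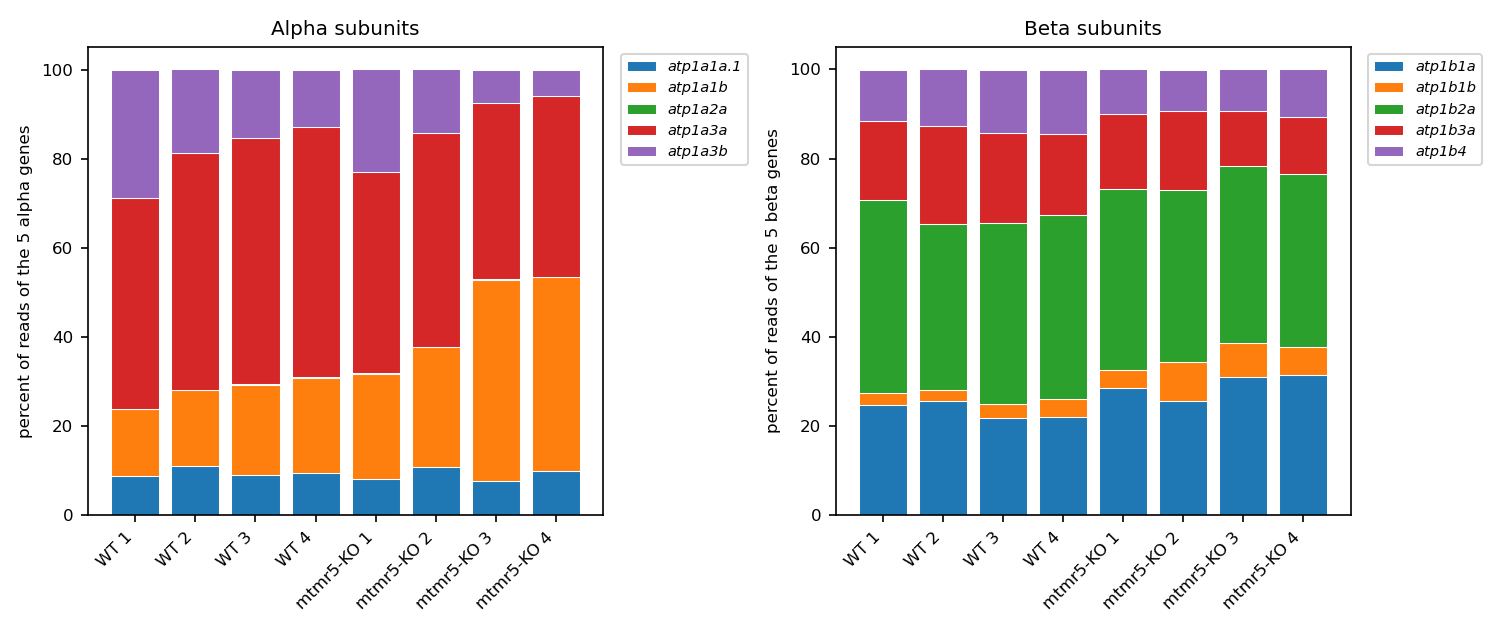
Share of reads (y axis, percent) that each of the 5 alpha genes (left) and each of the 5 beta genes (right) took of the reads of its class, with 1 stacked bar for each library (x axis). *atp1a1b* takes 15% to 21.2% of alpha reads in WT against 23.7% to 45.2% in *mtmr5*-KO, and *atp1b2a* stays between 37.2% and 43.5% of beta reads throughout.

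The summed reads of the members of each class overlapped between genotypes. The alpha members summed to 652 to 843 CPM in WT against 691 to 808 CPM in *mtmr5*-KO, and the beta members to 514 to 612 and 453 to 625 CPM. The ratio of alpha to beta reads of the members was 1.35 ± 0.0538 in WT against 1.38 ± 0.128 in *mtmr5*-KO (SD, n = 4 each). It was 1.27 to 1.39 in WT against 1.29, 1.25, 1.45 and 1.52 in *mtmr5*-KO replicates 1 to 4, so replicates 3 and 4 lay above WT. The sums leave out the other 6 rows, among them *atp1b2b* (mean 57.6 CPM in WT against 33.6 CPM in *mtmr5*-KO) and *atp1b3b* (103 against 70.8 CPM). The ratio is therefore not that of all alpha and beta reads.

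Of the beta1 genes, *atp1b1b* had the largest log2 fold change of the 16 alpha and beta rows. It had 15.9, 13, 17.7 and 19.8 CPM in WT against 25.9, 53.2, 39.3 and 29.1 CPM in *mtmr5*-KO. All *mtmr5*-KO libraries were above all WT libraries, and the highest was replicate 2. The means were 16.6 ± 2.88 and 36.9 ± 12.3 CPM (SD, n = 4 each), and the log2 fold change was 1.15 with an SE of 0.21 (edgeR, adjusted p = 0.00114), or 0.22 when scaled by library totals (adjusted p = 0.503). Leaving out *mtmr5*-KO replicates 3 and 4 gave 1.23 (adjusted p = 0.00977). Of the 10 members it alone passed the stricter thresholds used in the paper. These were an adjusted p below 0.01 with a log2 fold change beyond 1 in either direction. In this edgeR fit 8.21% of all genes passed them, while the paper used DESeq2.

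*atp1b1a*, its more abundantly read copy, had 151, 143, 122 and 113 CPM in WT against 178, 159, 156 and 142 CPM in *mtmr5*-KO. Only *mtmr5*-KO replicate 4 fell within the WT range, and the log2 fold change of 0.27 (SE 0.15) was not called (edgeR adjusted p = 0.220). Together the beta1 copies took 25% to 28% of beta reads in WT against 32.6% to 38.7% in *mtmr5*-KO, without overlap. These shares too add up to a fixed total. The mean share of *atp1b3a* went from 19.6% in WT to 14.9% in *mtmr5*-KO, and that of *atp1b4* from 13.2% to 9.80%. The shares also leave out *atp1b2b* and *atp1b3b*. The ratio of *atp1b1a* to *atp1b1b* counts was 5.73 to 11 in WT against 3 to 6.87 in *mtmr5*-KO, which overlapped.

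**Figure D3:**
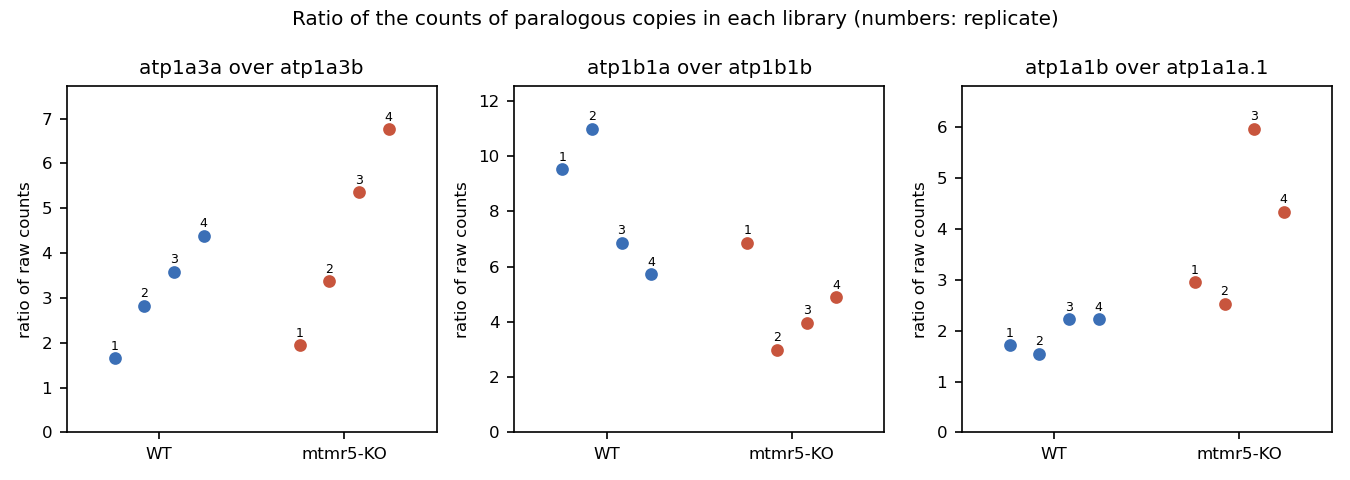
Ratio of raw counts (y axis, from 0) of *atp1a3a* over *atp1a3b*, *atp1b1a* over *atp1b1b* and *atp1a1b* over *atp1a1a.1* in each WT (blue) and *mtmr5*-KO (red) library, numbered by replicate. Of the 3 ratios, that of the alpha1 genes separates the genotypes, at 1.55 to 2.22 in WT against 2.53 to 5.97 in *mtmr5*-KO.

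The beta2 gene *atp1b2a*, homolog of the glial adhesion subunit, had 266, 206, 227 and 212 CPM in WT against 254, 239, 201 and 175 CPM in *mtmr5*-KO. The genotypes overlapped, and the log2 fold change was -0.069 (SE 0.16, edgeR adjusted p = 0.801). Its copy *atp1b2b* was highest in replicate 1 and lowest in replicate 4 of both genotypes, with 87.6, 61.1, 46.2 and 35.6 CPM in WT against 65.9, 42.9, 16.2 and 9.34 CPM in *mtmr5*-KO. It was not called (log2 fold change -0.77, SE 0.63, adjusted p = 0.453), and the log2 fold change was -0.13 without *mtmr5*-KO replicates 3 and 4. Of 12 tested markers of astroglia and radial glia, 3 were lower and none higher. These were *sox2*, a transcription factor of neural progenitors, at -0.74, *aqp1a.1* at -0.81 and *her4.1* at -0.74. Of those not called, *gfap* at 0.59 and *slc1a3b* at 1.07 pointed up and *slc1a2b* at -0.42 pointed down. By library totals 10 markers were lower and none higher, where 10819 of all 19412 genes were called lower. The sum of this list was 1630 to 1840 CPM in WT against 1360 to 1790 CPM in *mtmr5*-KO, and *ptgdsb.2* was at 0 in every library. The photoreceptor markers, given above, varied widely within each genotype, as *atp1b2b* did. Their sum was 6850 to 14700 CPM in WT against 3610 to 13500 CPM in *mtmr5*-KO. The part of glia or of photoreceptors in the beta2 values was not tested.

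*atp1b3a*, a beta3 gene, had 108, 122, 112 and 94.3 CPM in WT against 104, 110, 62.6 and 58.5 CPM in *mtmr5*-KO. Replicates 3 and 4 of *mtmr5*-KO were below every WT library and replicates 1 and 2 among them, and the log2 fold change of -0.38 (SE 0.20) was not called (edgeR adjusted p = 0.190) and was -0.063 without those replicates. Its copy *atp1b3b*, outside the members, had 88.3 to 114 CPM in WT against 52.3 to 88.1 CPM in *mtmr5*-KO, and fell by 0.54 on the log2 scale (SE 0.17, adjusted p = 0.0324). The genotypes of *atp1b3b* were separated by only 0.205 CPM, and its adjusted p ranged from 0.0126 to 0.101 when 1 library was left out. Leaving out WT 1, 2 or 3, or *mtmr5*-KO 3 or 4, ended its call.

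*atp1b4* encodes a pump subunit in fish, while in placental mammals its product has left the pump and is found at the nuclear membrane of muscle. It had 70.5, 70.8, 79.4 and 74.2 CPM in WT against 63.3, 57.3, 46.8 and 47.8 CPM in *mtmr5*-KO. All *mtmr5*-KO libraries lay below the WT libraries, with *mtmr5*-KO replicates 3 and 4 lowest. The means were 73.7 ± 4.14 and 53.8 ± 7.88 CPM (SD, n = 4 each), and the log2 fold change was -0.45 with an SE of 0.14 (edgeR, adjusted p = 0.0330). The adjusted p was between 0.0117 and 0.104 with 1 library left out. Leaving out WT 2, 3 or 4, or *mtmr5*-KO 3 or 4, ended the call, and without both *mtmr5*-KO 3 and 4 the log2 fold change was -0.32 (edgeR adjusted p = 0.144). Of 18 tested muscle markers 8 were higher and 1 was lower, against 6 higher and none lower without those libraries. By library totals 1 was higher and 4 were lower. The part of muscle, or of other cell types such as glia, in the *atp1b4* values was not tested.

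**Figure D4:**
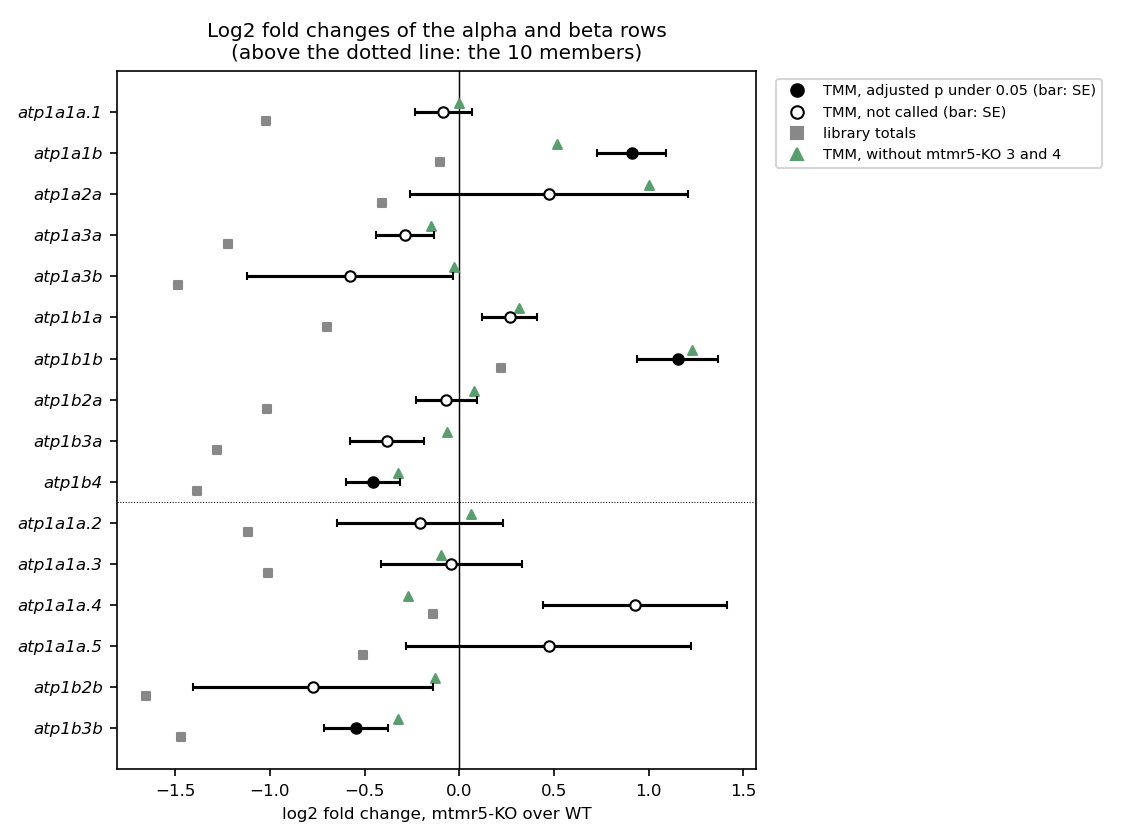
Log2 fold change of *mtmr5*-KO over WT (x axis) for the 10 members and, below the dotted line, the other 6 alpha and beta rows, by edgeR with TMM scaling (circles, filled when the adjusted p was under 0.05, bars 1 standard error), with library totals (squares) and without *mtmr5*-KO replicates 3 and 4 (triangles). *atp1b1b*, at 1.15, and *atp1a1b*, at 0.91, are the called increases with TMM, and library totals move all rows to the left, *atp1a1b* to -0.10. *atp1a1a.5* has no triangle, as it did not pass the count filter without those libraries.

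The called increases were in an alpha1 and a beta1 gene, isoforms that are widespread in mammals and not particular to epithelia. Markers of keratinocytes, ionocytes and liver are given here for the same libraries. Of 14 keratinocyte markers 9 were higher and none lower, with a median log2 fold change of 1.17, among them the keratins *krt4* at 1.36 and *krt92* at 1.25. The count was 3 of 14 without *mtmr5*-KO replicates 3 and 4. Their summed level was 456 to 923 CPM in WT against 988 to 2470 CPM in *mtmr5*-KO. Of 11 tested ionocyte markers, the pump-rich ion-transporting cells of larval skin and gill, 3 were higher and none lower, namely *foxi3b*, a transcription factor of the lineage, the carbonic anhydrase *ca2*, and *atp6v1aa*, a proton pump subunit also found outside ionocytes, which was at -0.40 by library totals. Without *mtmr5*-KO replicates 3 and 4, 1 ionocyte marker was higher and 1 lower. The ionocyte list summed to 117 to 142 CPM in WT against 144 to 196 CPM in *mtmr5*-KO, while *foxi3a*, *slc9a3.2* and *slc4a1b* were too low to be tested. Most of that sum was *atp6v1aa*, with a mean of 88.8 CPM in WT against 130 CPM in *mtmr5*-KO. The means of *foxi3b* and *ca2* were only 0.144 and 1.94 CPM in WT against 1.39 and 4.19 CPM in *mtmr5*-KO. Of 9 tested liver markers 8 were higher, or 5 without those replicates, with a sum of 24.3 to 40.8 CPM in WT against 66.2 to 215 CPM in *mtmr5*-KO. By library totals 1 keratinocyte marker was higher and 1 lower, and 1 ionocyte marker was higher and 2 were lower. Of the 9 liver markers 7 were still higher and none lower by library totals. Among the 12 tested markers of astroglia and radial glia, given above, 3 were lower and none higher. The part of all these cell types, and of neurons and muscle, in the rise of *atp1a1b* and *atp1b1b* was not tested.

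The pump is tuned by small FXYD membrane proteins, which bind the alpha-beta complex, and by kinases and hormone receptors. Of 7 tested FXYD genes, 3 rose and none fell. These were *fxyd2*, a regulator of the renal pump in mammals, with a log2 fold change of 1.80 (SE of 0.54, edgeR adjusted p = 0.0261), *fxyd11* at 1.56 and *fxyd6* at 1.38, all 3 under 5 CPM in the mean of either genotype. *fxyd3*, at 21.9 ± 2.61 CPM in WT against 15.5 ± 4.05 CPM in *mtmr5*-KO (SD, n = 4 each), was at -0.49 and not called (adjusted p = 0.0706). Without *mtmr5*-KO replicates 3 and 4, 1 FXYD gene was called, and with library totals none was higher and 4 were lower. Of 3 tested NKAIN genes, whose products bind the beta subunit in mammals, *nkain1* rose from 73.6 ± 9.55 to 121 ± 6.11 CPM (SD, n = 4 each), with a log2 fold change of 0.72 (edgeR, adjusted p = 0.00155), or -0.23 by library totals. *nkain2* and *nkain4*, at 0.47 and 0.55, were not called.

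Of 10 kinases and hormone receptors that act on the pump, 3 were higher and none lower, whereas by library totals none was higher and 4 were lower. *sgk2a*, a kinase of the family that raises sodium transport, had a log2 fold change of 1.24 with an SE of 0.23 (edgeR, adjusted p = 0.00123), or 0.28 by library totals (adjusted p = 0.384). The log2 fold change of *nr3c1*, the glucocorticoid receptor gene, was 0.62, or -0.33 by library totals, and that of *prkacaa*, a catalytic subunit of protein kinase A, was 1.14, or 0.097 by library totals. *prkacab*, at -0.40, was not called.

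The calcium pumps are P-type ATPases like the sodium pump, and are given by their membrane. All 6 plasma membrane calcium pumps (*atp2b* genes) were called higher, from 0.54 to 1.84 on the log2 scale, while none of the 5 reticulum pumps (*atp2a* genes) was called, with log2 fold changes from -0.45 to 0.50. *atp2b1a* rose from 212 ± 35.1 to 756 ± 141 CPM (SD, n = 4 each, edgeR adjusted p = 3.49e-06), and *atp2b1b*, *atp2b2* and *atp2b4* had log2 fold changes of 1.37, 1.75 and 1.41. Of the 6, 5 were higher without *mtmr5*-KO replicates 3 and 4. With library totals *atp2b1a* and *atp2b2* were still called higher, while *atp2b3a* and *atp2b3b*, the *atp2b* genes that changed sign, went to -0.48 and -0.19, and 4 of the 5 *atp2a* genes were called lower. No test compared the calcium pumps with the sodium pump, for which 2 of 10 members were higher.

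Carriers that run on the sodium and potassium gradients moved both ways, with 8 of 28 tested genes higher and 2 lower. *slc6a1a*, a GABA transporter, rose from 266 ± 56.4 to 693 ± 107 CPM (SD, n = 4 each, log2 fold change 1.38, edgeR adjusted p = 6.93e-05). *slc12a5b*, a neuronal potassium-chloride cotransporter, had a log2 fold change of 1.70, the sodium-proton exchanger *slc9a6a* one of 0.74 and the sodium-calcium exchanger *slc8a4a* one of 1.85. The level of *slc8a4a* was low, with means of 0.960 CPM in WT against 3.50 CPM in *mtmr5*-KO. Its *mtmr5*-KO replicate 3 had 6.73 CPM and the other *mtmr5*-KO libraries 2.12 to 2.98 CPM. By library totals no carrier was called higher and *slc9a6a* was at -0.21. The 2 lower carriers, named after their values were seen, were *slc12a2*, a sodium-potassium-chloride cotransporter, at -0.87 and the neutral amino acid carrier *slc1a4* at -0.99. Without *mtmr5*-KO replicates 3 and 4, 5 carriers were higher and none lower.

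**Figure D5:**
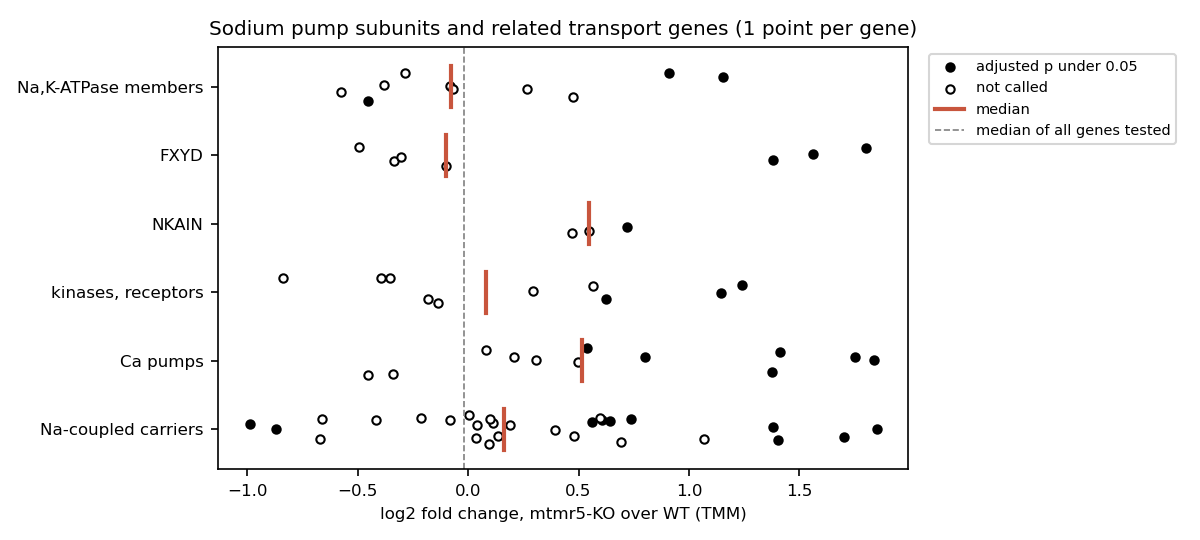
Log2 fold change of *mtmr5*-KO over WT (x axis, TMM) for the 10 sodium pump members and for related transport genes, 1 point per gene, filled when the adjusted p was under 0.05, with the median of each row in red and that of all genes tested as a dashed line. The member median of -0.076 lies close to the median of all genes at -0.019, and the filled points at the far right of the calcium pump row are *atp2b* genes.

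Rows with identifier or clone names, or with a symbol ending in a dot and a number, were left out here. The remaining genes whose log2 CPM best followed the most read alpha and beta members over the 8 libraries were listed as a description. For *atp1a3a* these were *rtn3*, a reticulon of the endoplasmic reticulum, *xpo6*, an export receptor of the nucleus, and *cnot8*, a subunit of the CCR4-NOT deadenylase, with Pearson correlations of 0.99, 0.98 and 0.98. For *atp1b2a* they were *acsl4a*, a fatty acid ligase, *tom1*, an endosomal sorting protein, and *ube2t*, a ubiquitin-conjugating enzyme with a mean of only 0.964 CPM, at 0.97, 0.96 and 0.95. The 8 points share their genotypes and replicate numbers.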

How the data were processed

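RNA of larval heads was sequenced in 8 paired-end libraries. The authors used Trim Galore 0.6.7 for trimming, STAR 2.7.11a for alignment to GRCz11 and HTSeq 2.0.5 (intersection_nonempty) for counting unique alignments, as the methods of the paper and the submitters' processing notes give them. Whether counting used strand is not given in these sources, so reads of overlapping antisense genes may not have been told apart. The authors deposited raw counts for 32520 rows, of which 2901 were repeated symbols that were made unique here by a suffix. They also deposited normalized counts, a signal equal to the raw counts over 1 size factor per library, for the 19412 rows that reached 10 counts in 3 or more libraries, as checked on the files.

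Library, genotype and replicate number came from the labels, and no library was left out. Per the paper, each replicate stems from another breeding pair. No pair of libraries of a genotype was a duplicate (lowest chi-square per degree of freedom 19.9). Raw counts of the 19412 rows entered edgeR 4.0.16 with genotype as the only term (quasi-likelihood fit, robust=TRUE, TMM factors, Benjamini-Hochberg adjustment over all rows) in R 4.3.3. The standard error (SE) is the absolute log2 fold change over the square root of F. TMM factors were 1.28 to 1.60 for WT but 0.559 to 0.881 for *mtmr5*-KO. Alternatives were DESeq2 1.42.0, limma 3.58.1 (voom), other scalings, filters and thresholds, the replicate number as a block, and libraries left out, and 2 of them were added after the data were seen, library totals with the block and a fit without both libraries numbered 1. Shares within a subunit class had been planned per kilobase but use raw counts, as no transcript lengths were used. The fits were tested on simulated data.

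The members and lists were chosen with earlier results of these data known. All members were named, with the other *atp1a* and *atp1b* rows, up to 4 genes with the smallest p of each list of pump regulators, calcium pumps and carriers, and the 3 genes with the highest correlation with the most read alpha and beta members. For that correlation, rows with identifier or clone names and symbols ending in a dot and a number were left out. Cell type markers, *atp2b3a*, *atp2b3b*, *slc12a2* and *slc1a4* were named after their values were seen. Of the members, 10 matched RefSeq symbols and 3 the Ensembl name table. Figures were drawn with matplotlib 3.10.9.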

Additional observations from a re-analysis of the deposited data

Results flagged for a closer look

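Of 62 sets of 4 values examined (levels, shares and copy ratios of the alpha and beta rows within a genotype), 1 held a library far from the others. The ratio of *atp1b3a* to *atp1b3b* counts was 1.01 in WT replicate 1 and 1.07 to 1.08 in the other WT libraries. Chance alone gives this for about 1 in 20 sets.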

How the results depend on the processing

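Of the members, *atp1a1b* and *atp1b1b* were called in 18 of 20 alternatives each, the exceptions being library totals with and without the block, and *atp1b4* in 14 of 20, the thresholds of the paper not counted. With library totals, 11538 genes were called (719 higher and 10819 lower, against 2618 higher and 1457 lower with TMM), 6 members were called, all lower, and the member median was -1.02. The log2 fold changes that turned were then those of *atp1a1b* (-0.10), *atp1a2a* (-0.41), *atp1b1a* (-0.70), *atp1a1a.4* (-0.14) and *atp1a1a.5* (-0.51). This scaling moves the median of all genes to -0.98.
With the replicate number as a block, 7 members were called, 3 higher and 4 lower. Of all 19412 genes 5143 were called, 2879 higher and 2264 lower, against 4075 without the block. Calls were gained for *atp1a3b* (log2 fold change -0.71, adjusted p = 0.000638 from edgeR), *atp1a3a* (-0.29, adjusted p = 0.0448), *atp1b3a* (-0.43, adjusted p = 0.0173) and *atp1b1a* (0.27, adjusted p = 0.0499), and outside the members for *atp1b2b* and *atp1a1a.4*. Deviations of same-numbered libraries from their genotype means correlated at 0.0906 to 0.168 over all genes, and all 8 libraries correlated best with their own number. This is a hint from the data that the numbers mark shared pairs. The paper speaks of WT siblings and of replicates from different breeding pairs, while the labels do not state that a number marks a shared pair. The block with library totals gave 12366 genes, 7 members, a member median of -1.06 and turned *atp1a1b* (-0.10), *atp1a2a* (-0.71), *atp1b1a* (-0.71), *atp1a1a.4* (-0.22) and *atp1a1a.5* (-0.68).
Without *mtmr5*-KO replicates 3 and 4, 2371 genes were called, and *atp1b2a* (0.077), *atp1a1a.2* (0.063) and *atp1a1a.4* (-0.27) turned. With the thresholds of the paper 1593 genes and 1 member were called in the edgeR fit used here, which is not the DESeq2 fit of the paper. Other turns were those of *atp1a2a* with limma-voom (-0.10), without *mtmr5*-KO replicate 1 (-0.084, in a range of -0.084 to 0.84 with 1 library left out) and without both libraries numbered 1 (-0.12), of *atp1b2a* without WT replicate 1 (0.016, range -0.17 to 0.016), and of *atp1a1a.3* with upper-quartile scaling (0.0058), without WT replicate 1 (0.011), without *mtmr5*-KO replicate 1 (0.11, range -0.23 to 0.11) and without both libraries numbered 1 (0.18). No gene whose direction turned in these last settings was called in them or with TMM and all libraries. Members called numbered 2 or 3, and genes 2749 to 4585, with 1 library left out. With all 16 rows in the pools, the difference in share of *atp1b2a* was 1.66 percentage points in place of -1.25 and that of *atp1b4* -2.03 in place of -3.44. Depth limits *atp1a2a* and *atp1a1a.5*, which had means of 16.8 and 8.63 raw counts. Shares per kilobase were not run, and *atp1a1a.5*, which then missed the count filter, gave no value with filterByExpr, without WT replicate 1 or 2, without *mtmr5*-KO replicate 4, without *mtmr5*-KO replicates 3 and 4, and without both libraries numbered 1.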
